A study of Mus musculus with 4 samples.

Results

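S-phase tumour cells are the cells of a tumour whose messenger RNA carries transcripts of DNA replication and at most a few of those of mitosis. They were picked from single-cell profiles by a count of unique molecular identifiers (UMIs, each one a captured RNA molecule). A cell was included when its UMIs of Hells, Clspn, Tyms, Lig1, Mcm3, Mcm6, Atad2 and Pcna summed to at least 3 (the S sum) and those of Mki67, Top2a, Cenpf, Cenpe, Ube2c, Prc1, Tpx2, Hmmr and Aspm summed to at most 3 (the mitotic sum). Of 6734 cell barcodes in the tables of 4 tumours, 2288 held at least 500 UMIs, at least 200 genes and at most 10% mitochondrial UMIs, and 231 of these were S-phase cells. Tumours 1 to 4 contributed 24, 14, 59 and 134 of them.

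The study profiled medulloblastomas of mice by Drop-seq, which reads the 3′ end of transcripts from single cells captured in droplets with barcoded beads. All 4 tumours carried hGFAP-Cre together with SmoM2 and were Prkaa1fl/fl and Prkaa2fl/fl, with both copies of each gene flanked by loxP sites, came from untreated mice and were taken at postnatal day 16. SmoM2 is an activated form of the SHH receptor component Smoothened, hGFAP-Cre drives recombination in neural stem and progenitor cells of the developing brain and in their descendants, and Prkaa1 and Prkaa2 encode the catalytic subunits of AMP-activated protein kinase. The 4 tumours form 1 group, and tumours with intact Prkaa1 and Prkaa2 were not analysed here, so no effect of the deletion was measured. The comparisons were made within tumours, against 970 quiet cells with at most 1 UMI of each sum and against 486 G2/M cells with a mitotic sum above 3 and an S sum under 3. A further 301 cells had both sums high and 300 fell in no class.

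During S phase a cell copies its genome once. Origins are licensed in G1 when the origin recognition complex, Cdc6 and Cdt1 load the MCM helicase, and they fire when Cdc7 and cyclin-dependent kinases recruit Cdc45 and the GINS complex. Polymerases then copy the strands, Pcna clamps them to DNA, Lig1 joins the lagging-strand fragments and chromatin assembly factors wrap the new DNA. Many of these genes are transcribed by E2F factors, which Rb family proteins hold in check until cyclin D kinases act, and in the cerebellum SHH drives the division of granule neuron progenitors partly through cyclin D and Mycn.

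Short stretches of promoters are shown because several genes of the gate and of origin licensing carry the letters of an E2F-type motif there. The motifs searched were TTTCGCGC, TTTGGCGC, TTTCCCGC and TTTGCCGC on both strands, in the window from 250 bases before to 50 after each start site in RefSeq's GRCm38.p6 table. Capitals mark the motif, read 5′ to 3′ on the gene's strand, so a match on the other strand appears as its reverse complement.
Hells, chr19:38930917-38930946, gene on the plus strand: gaccaccgggtTTTCCCGCgaaagagaagc
Mcm6, chr1:128359734-128359763, gene on the minus strand: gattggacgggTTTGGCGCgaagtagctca
Mcm5, chr8:75109345-75109374, gene on the plus strand: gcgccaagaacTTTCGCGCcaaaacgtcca
Cdc6, chr11:98908002-98908031, gene on the plus strand: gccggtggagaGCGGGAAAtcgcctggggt
Mcm7, chr5:138172030-138172059, gene on the minus strand: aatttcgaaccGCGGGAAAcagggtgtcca
Orc1, chr4:108579416-108579445, gene on the plus strand: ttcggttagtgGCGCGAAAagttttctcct
Of 32851 promoters in the table, 2.26% held at least 1 of these motifs. It was present in 5 of 9 promoters of the S gate genes and in 0 of 10 of the mitotic gate genes. Among the replication lists, described with their values below, the share was 38.9% for origin licensing and firing (7 of 18 promoters), 28.6% for polymerases and fork proteins (8 of 28), 20% for DNA repair (6 of 30) and 4% for nucleotide synthesis (1 of 25). Mitotic genes outside the gate held it in 15.9% (7 of 44 promoters) and all genes tested against quiet cells in 4.91%. A match shows letters only, not binding.

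The libraries differed in depth and in their shares of mitochondrial and ribosomal protein UMIs. The S-phase cells of tumours 1 to 4 held 26936, 11226, 66930 and 158753 UMIs in all, so 1 UMI in tumour 2 was worth 89.1 CPM (the UMIs of a gene scaled to a fixed total per class and tumour), and values of that tumour moved in steps of this size. Mitochondrial UMIs made up 6.65% and 7.32% of the S-phase totals of tumours 1 and 2 against 2.92% and 1.97% in tumours 3 and 4, and ribosomal protein genes 2.75% and 3.16% against 6.38% and 6.79%. Quiet cells showed the same split (mitochondrial 6.20% and 6.90% against 2.62% and 2.07%), and the labels name no batch for it. Some genes with near-identical copies, such as Hmgn2 described below, were almost absent from tumours 1 and 2. Whether reads of such genes, ribosomal protein genes included, were counted the same way in all 4 libraries is not given in the sources used here and was not tested. S-phase cells were also deeper, with a median of 1060 UMIs against 738 in quiet and 959.5 in G2/M cells. Tumours 2 and 4 shared 1 barcode, and none was shared among cells passing the filters.

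The S-phase share was 6.49% in tumour 1 (95% exact binomial interval 4.20 to 9.50%), 4.81% in tumour 2 (2.65 to 7.94%), 10.5% in tumour 3 (8.10 to 13.4%) and 12.6% in tumour 4 (10.6 to 14.7%). The mean was 8.60% ± 3.57 (SD, n = 4 tumours). The intervals cover counting error only. Those of tumours 1 and 2 overlapped each other, as did those of tumours 3 and 4 and those of tumours 1 and 3, so these intervals do not split the tumours into 2 separate pairs. The intervals of tumours 1 and 4, 2 and 3, and 2 and 4 did not overlap. Without the mitochondrial limit, S-phase cells of tumours 1 to 4 numbered 64, 51, 59 and 135 and their shares were 8.36%, 6.33%, 10.4% and 12.5%, so the limit removed most S-phase cells of tumours 1 and 2. The share depended on the rule: it averaged 13.5% with an S sum of at least 2, 5.88% with at least 4 and 3.74% with a mitotic sum of 0.

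**Figure D1:**
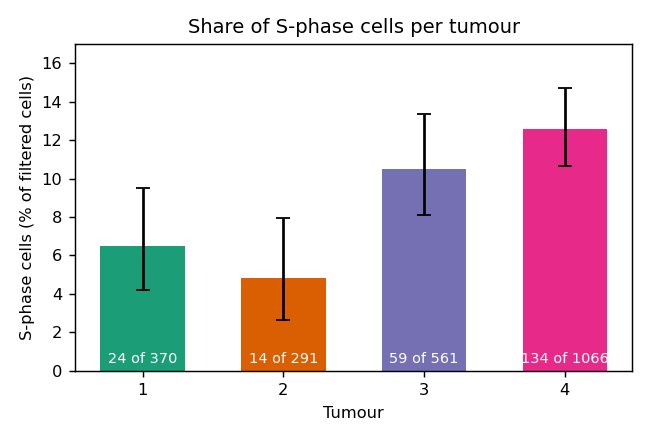
Share of S-phase cells among filtered cells (vertical axis, percent) in each of the 4 tumours (horizontal axis). Bars give the share, error bars the 95% exact binomial interval, and the numbers inside count S-phase cells of filtered cells. Tumours 3 and 4 had 10.5% and 12.6%, above tumours 1 and 2 with 6.49% and 4.81%.

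The rule fixed the levels of its own genes, so these are description only. The S sum was exactly 3 in 75 of the 231 cells, 4 or 5 in 90 and 6 or more in 66, with 17 as the highest value. Most cells reached it with several genes: 95 cells carried 3 different gate genes, 82 carried 4 or more, 47 carried 2 and 7 carried 1. Pcna, the sliding clamp, supplied 18.7% of the gate UMIs, Lig1 17.8%, the chromatin remodeller Hells 16.1%, the helicase subunit Mcm6 12.7%, the chromatin ATPase Atad2 11.1%, Mcm3 8.70%, the checkpoint mediator Clspn 7.62% and Tyms, which makes thymidylate, 7.17%. No single gene therefore made the class. The mitotic sum was 0 in 104 cells, 1 in 40, 2 in 44 and 3 in 43.

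As a description of the gate, the cells were chosen again with each marker left out, so that 7 genes picked the cells and the level of the eighth was read. The 8 markers were set together with results of these data known, so that one follows the others is no check of the label. Every left-out marker was higher in the S-phase cells than in the quiet cells of all 4 tumours. Clspn stood at 392 ± 186 CPM against 23.4 ± 6.04 (SD over tumours), a ratio of means of 16.8. Atad2 reached 401 ± 80.9 against 37.4 ± 29.1 CPM, a ratio of 10.7. Hells followed with 578 ± 167 against 61.8 ± 29.4 CPM, a ratio of 9.36. For the 4 genes Mcm3, Tyms, Mcm6 and Lig1 the ratios were 6.57, 6.29, 5.95 and 4.53. Pcna had the smallest ratio, 3.87, at 559 ± 225 against 145 ± 38.3 CPM, with tumour 2 lowest at 247 CPM. In tumour 2 these levels rested on few UMIs, with 1 for Tyms and 2 each for Mcm3 and Pcna, and the ratio for Pcna was 1.40 there. All 8 markers belong to the rule, and most members carried 3 or fewer of them, so this describes sums over cells and not each cell.

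**Figure D2:**
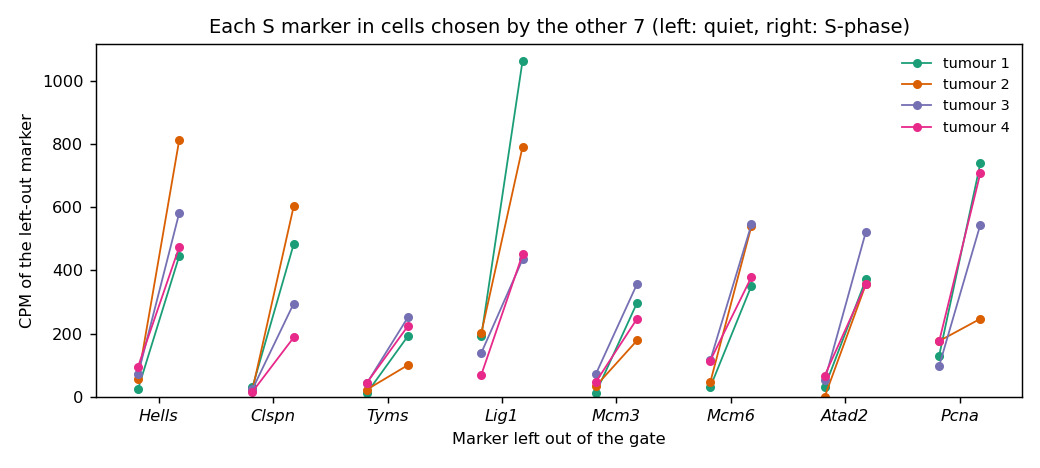
Level of each S marker (vertical axis, CPM) in quiet cells (left point) and S-phase cells (right point) chosen with the 7 remaining markers, 1 line per tumour. All 32 lines rise, from a ratio of means of 3.87 for Pcna to 16.8 for Clspn.

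Outside the 17 gate genes, 2801 genes passed the filter on low counts in the comparison with quiet cells, and 494 of them (17.6%) differed at an adjusted p under 0.05, 266 higher (9.5%) and 228 lower (8.14%) in S-phase cells. These tests used edgeR's quasi-likelihood model on UMIs summed per tumour and class, with the tumour as a block. They describe how the 2 gated classes differ in genes that did not choose them and are not independent evidence that the classes exist. Without tumours 1 to 4 in turn, 426 of 2942, 585 of 3710, 200 of 2862 and 147 of 1665 genes differed. Of these, 198, 274, 92 and 56 were higher. The count was 17 without the tumour block. With cells carrying markers of another cell type left out it was 472, of which 206 were higher and 266 lower. A low gene could enter the test through the class where it was high, so the counts and medians of tested list members below are selected, describe those genes only and support nothing about whole lists. When low genes were kept, 14269 genes were tested and 81 (0.568%) were higher and 282 (1.98%) lower. Of whole lists, 8 of 21 origin genes were then called higher, 8 of 31 polymerase and fork genes, 5 of 26 nucleotide synthesis genes, 8 of 35 repair genes, 5 of 30 regulators and 10 of 38 chromatin genes, and 21 of 28 neuron genes were called lower.

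The counts were also lower under another tool and a stricter rule. DESeq2 called 159 of 2801 genes, 68 higher and 91 lower. Among the tested list members, 4 of 10 origin, 6 of 11 polymerase and fork and 2 of 9 nucleotide synthesis genes were higher. So were 4 of 7 repair genes, 3 of 12 regulators, 10 of 30 chromatin genes and 2 of 14 SHH genes. Lower were 3 SHH genes and 16 of 23 neuron genes. With a mitotic sum of 0 in members, which left 104 cells, 105 of 1698 genes tested were called, 28 higher and 77 lower. These included 2 of 4 origin genes tested, 1 of 3 polymerase and fork genes, 2 of 6 nucleotide synthesis genes, 0 of 2 repair genes, 2 of 6 regulators and 3 of 29 chromatin genes as higher, and 15 of 19 neuron genes as lower.

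Several origin licensing and firing genes were higher in S-phase than in quiet cells. Of 21 listed genes 10 were tested, and 7 rose, namely Mcm2, Gmnn, Cdc6, Mcm5, Mcm7, Gins2 and Cdc7, with none lower and a median log2 fold change of 1.30 against 0.03 over all genes tested. Mcm2, a subunit of the replicative helicase, was counted at 297, 267, 209 and 145 CPM in the S-phase cells of tumours 1 to 4 and at 12.3, 45.9, 29.3 and 37.2 CPM in their quiet cells. All 4 S-phase values exceeded all 4 quiet values, a log2 fold change of 2.59 ± 0.39 (SE, edgeR adjusted p = 3.43e-09). Gmnn encodes geminin, which blocks relicensing by binding Cdt1, and it stood at 186, 267, 179 and 145 CPM against 24.5, 11.5, 34.2 and 23.9 CPM. The groups did not overlap here either, with a log2 fold change of 2.69 ± 0.41 (SE, edgeR adjusted p = 7.03e-09). Cdc6, the loader of the helicase, was at 111, 89.1, 119.5 and 126 CPM against 6.14, 11.5, 14.6 and 21.3 CPM, again without overlap (log2 fold change 2.83, SE 0.47, edgeR adjusted p = 1.19e-07). Without tumours 1 to 4 in turn, 7 of 12, 9 of 13, 5 of 10 and 2 of 5 tested genes of the list were called. Mcm2, Gmnn and Cdc6 kept their call in every alternative that tested them. Mcm5 and Mcm7, further helicase subunits, had log2 fold changes of 1.95 and 1.36, and Mcm7 lost its call without tumour 4 (1.02, adjusted p = 0.126). Gins2, of the helicase activator GINS, was higher in 3 of 4 tumours (1.10) and lost its call without tumour 3 or 4 (0.84, adjusted p = 0.26, and 0.78, adjusted p = 0.385). Cdc7, the kinase that fires origins, had a log2 fold change of 1.23 and lost its call without tumour 1 or 3 (0.91, adjusted p = 0.16, and 1.27, adjusted p = 0.105). The origin recognition genes Orc2 and Orc6 did not pass (0.60 and 0.39, adjusted p = 0.29 and 0.53), nor did the MCM-binding gene Mcmbp (0.56, adjusted p = 0.281). Summed over the list, the level was 2265, 2939.6, 2704 and 2595 CPM in S-phase cells against 742, 1125, 972 and 928 CPM in quiet cells. With every cell thinned to 500 UMIs after the gate, this came to 1.23 ± 0.06 UMIs per S-phase cell against 0.489 ± 0.129 per quiet cell (SD, n = 4 tumours). The cells were chosen at full depth, so this thinning does not undo a choice by depth. With thinning before the gate, 1 gene of the list was tested, and it was called higher.

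Of 31 polymerase and fork genes 11 were tested, and 8 rose, with none lower and a median log2 fold change of 1.28. Prim1, the catalytic subunit of primase, was at 297, 0, 344 and 441 CPM against 104, 45.9, 92.8 and 98.4 CPM, with no UMI in the 14 S-phase cells of tumour 2 and no overlap among the other 3 tumours (log2 fold change 1.92, SE 0.29, edgeR adjusted p = 1.95e-09). Timeless, which couples polymerase and helicase at the fork, was at 186, 445, 89.6 and 164 CPM against 61.4, 34.4, 24.4 and 21.3 CPM. Its S-phase values lay above every quiet value, a log2 fold change of 2.44 ± 0.40 (SE, edgeR adjusted p = 9.55e-08). Rpa2, a subunit of the single-strand binding protein, stood at 223, 89.1, 164 and 157 CPM against 36.8, 11.5, 19.5 and 42.5 CPM, also without overlap (log2 fold change 2.30, SE 0.40, edgeR adjusted p = 4.8e-07). The clamp loader subunits Rfc4, Rfc3 and Rfc1 had log2 fold changes of 1.81, 1.28 and 1.26, the ubiquitin ligase adaptor Dtl, which marks Cdt1 for destruction, one of 1.86, and Rpa3 one of 1.14. Rpa3 lost its call without tumour 3 (1.16, adjusted p = 0.123). Pole3, Pold3 and Top1 did not pass (0.88, 0.94 and -0.32, adjusted p = 0.0554, 0.068 and 0.307). Without tumours 1 to 4 in turn, 10 of 14, 15 of 19, 7 of 11 and 1 of 3 tested genes of the list were called.

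Nucleotide synthesis genes were higher in 6 of 9 tested (26 listed; median log2 fold change 1.14). Dut, which removes dUTP so that uracil stays out of DNA, was at 74.3, 534, 344 and 554 CPM in S-phase cells and 6.14, 138, 117 and 133 CPM in quiet cells. It was higher in each tumour, although tumour 1 was low in both classes (log2 fold change 1.94, SE 0.27, edgeR adjusted p = 1.13e-10). Pfas, an enzyme of purine synthesis, was at 111, 178, 119.5 and 88.2 CPM against 6.14, 11.5, 48.8 and 15.95 CPM with no overlap (log2 fold change 2.22, SE 0.46, edgeR adjusted p = 4.41e-05). Of the other purine enzymes, Paics had a log2 fold change of 1.18 and Ppat of 1.06, and of the thymidylate and dCTP enzymes Dtymk had 1.14 and Dctpp1 1.23. Paics and Dtymk lost their calls without tumour 3 (0.99, adjusted p = 0.0752, and 1.03, adjusted p = 0.0706) or tumour 4 (0.89, adjusted p = 0.235, and 1.32, adjusted p = 0.0602), and Ppat without tumour 1, 2 or 3 (adjusted p = 0.0559, 0.059 and 0.0802). DESeq2 did not call Paics, Ppat or Dctpp1 (0.122, 0.155 and 0.17 as adjusted p). The list summed to 2376, 2939.6, 4109 and 4044 CPM against 976, 1239, 1797 and 1885 CPM, higher in all 4 tumours and lower throughout in tumours 1 and 2. Without tumours 1 to 4 in turn, the list had 7 of 13, 8 of 15, 2 of 8 and 1 of 5 tested genes called.

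Among DNA repair and replication checkpoint genes 5 of 7 tested rose (35 listed; median 1.24). Rad51ap1, a factor of homologous recombination, was at 519.8, 445, 119.5 and 139 CPM against 55.2, 11.5, 24.4 and 31.9 CPM. Every S-phase value lay above every quiet value (log2 fold change 2.70, SE 0.39, edgeR adjusted p = 4.04e-10), and the call was kept in all 15 alternatives that tested the gene. Brca2, a tumour suppressor of the same repair pathway, was at 446, 445, 284 and 132 CPM against 61.4, 91.8, 117 and 29.2 CPM and was likewise without overlap (log2 fold change 1.96, SE 0.34, edgeR adjusted p = 5.79e-07). Usp1, the deubiquitinase of Pcna, rose by 1.24, Fancm, of the Fanconi anaemia pathway, by 1.66 and Parp1 by 0.85 on the log2 scale. Usp1 was not called without tumour 4 (1.21, adjusted p = 0.0963), and Parp1 was not called without tumour 2, 3 or 4 (adjusted p = 0.195, 0.467 and 0.145). Leaving out tumours 1 to 4 in turn gave 6 of 8, 8 of 11, 4 of 7 and 1 of 3 tested genes called. The Atr partner Atrip did not pass (-0.85, adjusted p = 0.185).

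**Figure D3:**
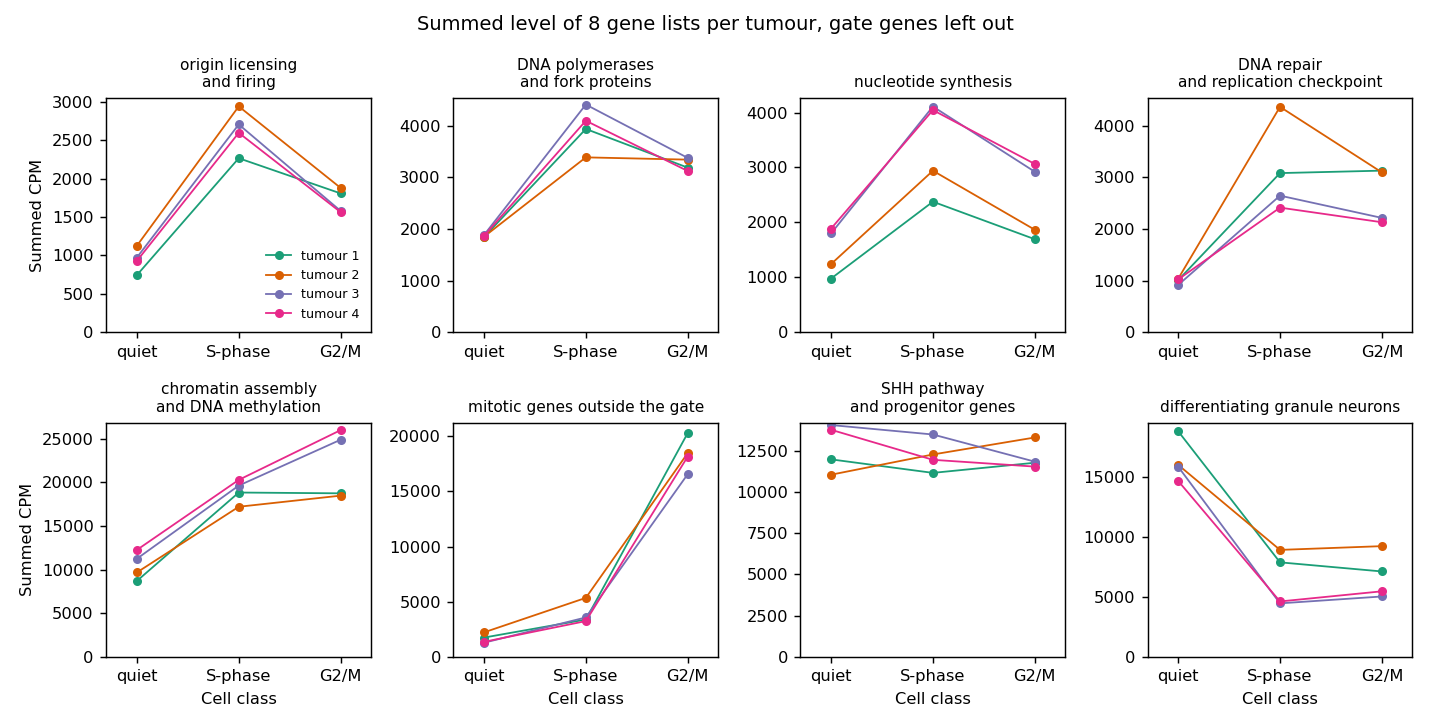
Summed level of 8 gene lists (vertical axes, CPM, gate genes left out) in quiet, S-phase and G2/M cells (horizontal axes), 1 line per tumour. The first 4 replication lists are higher in S-phase than in quiet cells of every tumour, the neuron list is lower, and the mitotic list is highest in G2/M cells.

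The regulators of entry into S phase moved in both directions. Of 30 listed genes 12 were tested, 8 rose and Cdkn1b fell, with a median log2 fold change of 1.07. Leaving out tumour 3 gave 4 higher genes of 12 tested, and leaving out tumour 4 gave 2 of 6 with a median of 0.39. Cdca7, an E2F and Myc target that works with Hells, was at 408, 534, 299 and 397 CPM against 67.5, 57.4, 48.8 and 114 CPM. All 4 S-phase values were at least as high as 299 CPM and no quiet value exceeded 114 CPM (log2 fold change 2.21, SE 0.29, edgeR adjusted p = 7.35e-12). Fbxo5, the inhibitor of the anaphase-promoting complex that is also called Emi1, was at 111, 267, 149 and 94.5 CPM against 6.14, 23.0, 14.6 and 15.95 CPM, without overlap (log2 fold change 3.02, SE 0.48, edgeR adjusted p = 1.85e-08). Ccnd1, the cyclin D of SHH-driven progenitors, was at 408, 356, 583 and 586 CPM against 98.2, 149, 269 and 213 CPM, again without overlap (log2 fold change 1.41, SE 0.24, edgeR adjusted p = 1.19e-07). Its paralog Ccnd2 rose less, by 0.58 on the log2 scale, and lost its call without tumour 3 or 4 (adjusted p = 0.271 and 0.134). E2f1 and E2f3, transcription factors of the G1 to S transition, had log2 fold changes of 1.83 and 1.21, Slbp, which binds the stem-loop of histone messages, 1.45, and Casp8ap2 0.91. Without tumour 3, E2f3, Slbp and Casp8ap2 were not called (adjusted p = 0.228, 0.128 and 0.147), and Casp8ap2 was not called without tumour 4 either (log2 fold change 0.23, adjusted p = 0.803). Cdkn1b, the cyclin-dependent kinase inhibitor p27, was at 37.1, 267, 194 and 296 CPM against 362, 425, 513 and 752 CPM. It was below its quiet value in each tumour and the groups did not overlap (log2 fold change -1.39, SE 0.25, edgeR adjusted p = 9.81e-07). Skp2, Cdk6 and Cdk4 did not pass (0.93, 0.37 and 0.17, adjusted p = 0.143, 0.553 and 0.625).

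Chromatin assembly and DNA methylation was the list with the most genes tested, 30 of 38, with 23 higher, none lower and a median log2 fold change of 0.82. Nasp, a chaperone of histones H3 and H4 and of linker histones, was at 2450.2, 2851, 1031 and 1077 CPM against 816, 574, 459 and 476 CPM. Its S-phase values lay above every quiet value, and tumours 1 and 2 were higher than tumours 3 and 4 in both classes (log2 fold change 1.40, SE 0.16, edgeR adjusted p = 3.87e-16). Anp32b, an acidic histone chaperone, showed the same order with 2450.2, 1692, 867 and 762 CPM against 460.2, 631, 278 and 292 CPM and no overlap (log2 fold change 1.67, SE 0.18, edgeR adjusted p = 6.97e-18). Chaf1a, the large subunit of chromatin assembly factor 1, which deposits histones behind the fork, was at 259.9, 445, 179 and 214 CPM against 43.0, 57.4, 34.2 and 50.5 CPM, without overlap (log2 fold change 2.31, SE 0.36, edgeR adjusted p = 1.21e-08). Dnmt1, which copies DNA methylation to the new strand, had a log2 fold change of 1.40 ± 0.25 (SE, edgeR adjusted p = 1.37e-06). Dek, Hmgb2, Nap1l1, Anp32e, Ezh2 and Hmgn5 were also higher, by 1.36, 1.48, 1.18, 1.10, 0.99 and 1.33 on the log2 scale. These 10 genes kept their calls whichever tumour was left out. With a mitotic sum of 0 in members, 3 of 29 tested genes of the list were called, Anp32b, Nasp and Dek. Hmgb2, Nap1l1, Dnmt1, Anp32e, Ezh2 and Hmgn5 were not called there, with log2 fold changes of 0.61, 0.92, 1.06, 0.86, 0.52 and 0.80, and Chaf1a was not tested. H2afz and Hmgn2 were called with 1, 0, 38 and 62 and 1, 0, 30 and 107 UMIs in the S-phase cells of tumours 1 to 4, so tumours 1 and 2 held almost none, and neither gene was tested without tumour 3 or 4. The Hmgb, Hmgn and Cbx genes have near-identical processed copies in the genome, and how the counting split their reads is not known, so their values are uncertain. The 13 called genes beyond those 10, with H2afz and Hmgn2 among them, had log2 fold changes from 0.54 for Cbx3 to 1.03 for Suz12. Without tumour 3 or without tumour 4 the list had 11 of 28 tested genes called in place of 23 of 30. H1f0, the linker histone of resting cells, did not pass (-0.48, adjusted p = 0.0902).

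Replication-dependent histone messages, which lack the usual poly(A) tail and are therefore poorly captured by a poly(A) method, gave little: 2 of 55 genes were tested. Hist3h2ba, with 10 UMIs in S-phase and 126 in quiet cells, was lower (log2 fold change -2.06, SE 0.48, edgeR adjusted p = 0.000281), and Hist1h1e did not pass (0.69, adjusted p = 0.111). Of 48 mitotic genes outside the gate 5 were tested and 3 rose. Smc2, a core subunit of condensin, was at 779.6, 713, 732 and 567 CPM against 325, 333, 176 and 157 CPM, without overlap (log2 fold change 1.65, SE 0.22, edgeR adjusted p = 8e-12). Its partner Smc4 rose by 1.20 and the condensin I subunit Ncapd2 by 1.29 on the log2 scale, the last not called without tumour 3 (1.28, adjusted p = 0.11). Members could hold up to 3 UMIs of the mitotic gate and quiet cells at most 1, so a difference in mitotic genes was partly set by the rule. With a mitotic sum of 0 in members Smc4 was not called (0.61, adjusted p = 0.324), Smc2 was called (1.20, adjusted p = 0.00987) and Ncapd2 was not tested. The mitotic list summed to 3378, 5345, 3571 and 3238 CPM in S-phase cells and 1743, 2215, 1274 and 1356 CPM in quiet cells.

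The largest changes by the naming rule included replication genes beyond the lists. Slfn9, a member of the Schlafen family, had the largest rise, at 297, 356, 194 and 107 CPM against 12.3, 23.0, 9.76 and 18.6 CPM, with no overlap (log2 fold change 3.44, SE 0.44, edgeR adjusted p = 1.64e-12). Esco2, the acetyltransferase that establishes cohesion between sister chromatids during replication, was at 111, 356, 134 and 101 CPM against 12.3, 23.0, 29.3 and 5.32 CPM, also without overlap (log2 fold change 3.12, SE 0.47, edgeR adjusted p = 4.05e-09). The gene listed as 2810417H13Rik, named Pclaf in RefSeq and encoding a Pcna-associated factor, had 3, 1, 68 and 144 UMIs in the S-phase cells of tumours 1 to 4 and 11, 6, 13 and 45 in quiet cells. In CPM this was 111, 89.1, 1016 and 907 against 67.5, 68.9, 63.5 and 119.6, so the difference was wide in tumours 3 and 4 and narrow in tumours 1 and 2, where it rested on 3 UMIs and 1 UMI (log2 fold change 2.97, SE 0.25, edgeR adjusted p = 4.31e-28). The others of the 10 were Fbxo5, Cdc6, Rad51ap1, Gmnn, Mcm2, Timeless and Chaf1a, described above.

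**Figure D4:**
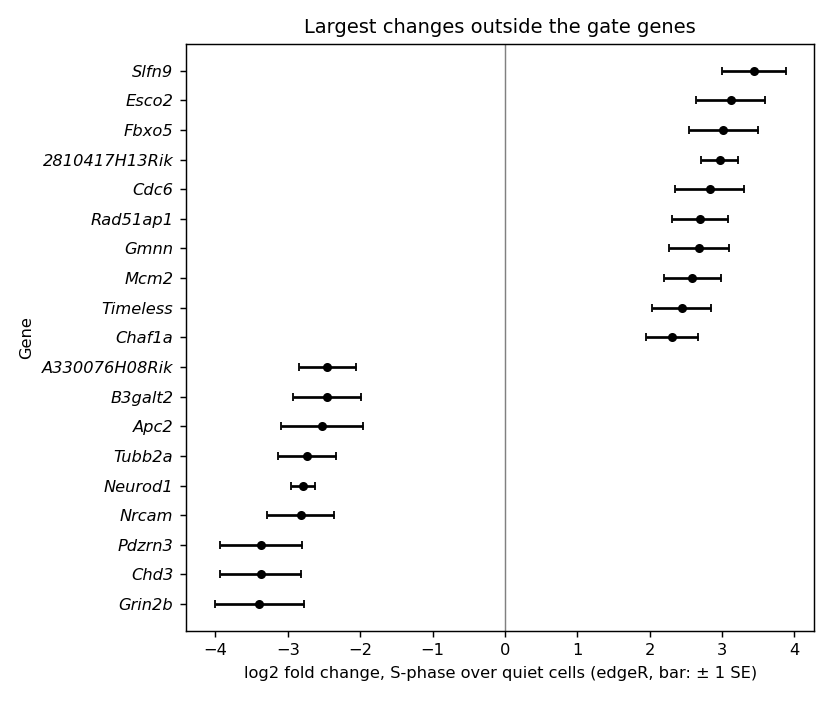
Log2 fold change of S-phase over quiet cells (horizontal axis, edgeR, bars ± 1 SE, n = 4 tumours) for the 10 largest rises and 9 large falls under the naming rule (vertical axis, genes outside the gate). Slfn9 is at the top with 3.44 and Grin2b at the bottom with -3.39.

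Genes of granule neuron differentiation were lower. Of 28 listed genes 23 were tested, 21 fell and none rose, with a median log2 fold change of -1.62. Neurod1, the transcription factor of granule neuron maturation, was at 297, 979.9, 239 and 391 CPM in S-phase cells and 2461, 2651, 2724 and 2526 CPM in quiet cells. The groups did not overlap, tumour 2 was the highest S-phase value, and the log2 fold change was -2.79 ± 0.17 (SE, edgeR adjusted p = 4.99e-58), called in all 22 alternatives. Cntn2, an axonal adhesion molecule of granule neurons leaving the cell cycle, was at 186, 624, 134 and 113 CPM against 2393, 1756, 522 and 516 CPM. It was lower in each tumour, with both classes higher in tumours 1 and 2, so the groups overlapped across tumours (log2 fold change -2.39, SE 0.23, edgeR adjusted p = 5.96e-22). Gap43, a growth cone protein, was at 223, 445, 374 and 573 CPM against 626, 562, 2129 and 2129 CPM. It was lower in each tumour, and the groups overlapped across tumours, since the S-phase cells of tumour 4 lay just above the quiet cells of tumour 2 (log2 fold change -1.94, SE 0.18, edgeR adjusted p = 2.31e-23). Stmn2, Tubb3, Dcx and Map2, cytoskeletal genes of growing neurites, fell, with log2 fold changes of -1.77, -1.51, -1.30 and -1.16. Grin2b, an NMDA receptor subunit, had 3 UMIs over all S-phase cells and 135 over quiet cells (log2 fold change -3.39, SE 0.62, edgeR adjusted p = 1.86e-06). Stmn3 and Reln did not pass (-0.74 and -0.62, adjusted p = 0.0547 and 0.338). Without tumour 3, 15 of 23 tested genes of the list were called, and without tumour 4, 15 of 20. The list summed to 7871, 8908, 4452 and 4611 CPM against 18800.5, 15997, 15848 and 14659 CPM, and at 500 UMIs a cell to 3.06 ± 0.87 against 8.75 ± 1.36 UMIs (SD, n = 4).

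Further large falls under the naming rule were in genes outside that list. Chd3, a chromatin remodeller, had 1, 0, 0 and 3 UMIs in S-phase and 40, 23, 26 and 60 in quiet cells (log2 fold change -3.38, SE 0.57, edgeR adjusted p = 1.27e-07). Pdzrn3, Nrcam, Tubb2a, Apc2, B3galt2 and A330076H08Rik fell, with log2 fold changes of -3.37, -2.82, -2.73, -2.53, -2.46 and -2.45. The vimentin gene Vim, of the stem or glial list, fell with a log2 fold change of -1.38 and was not called without tumour 3 (-1.39, adjusted p = 0.106), while Sox9 and Hes1 did not pass (0.78 and 0.43, adjusted p = 0.0678 and 0.489).

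The SHH pathway and progenitor list changed in both directions and little in sum. Of 25 genes 14 were tested, 3 rose, 5 fell, and the median log2 fold change was -0.26. Without tumours 1 to 4 in turn, 4, 5, 2 and 2 genes of the list were higher and 4, 5, 2 and 3 lower. The genes tested then numbered 15, 18, 14 and 12. Sfrp1, a Wnt antagonist and SHH target, was at 1745, 2227, 1883 and 1688 CPM against 736, 1297, 1157 and 1146 CPM, without overlap (log2 fold change 0.73, SE 0.14, edgeR adjusted p = 4.4e-06). The others that rose were Ccnd1 and Ccnd2. Zic1, a granule lineage transcription factor, was at 743, 1247, 792 and 813 CPM against 1344, 1319.7, 1499 and 1478 CPM, lower in each tumour and without overlap (log2 fold change -0.80, SE 0.16, edgeR adjusted p = 7.4e-06). Chd7, Sox4, Pax6 and Nfib fell, with log2 fold changes of -0.85, -1.06, -0.83 and -0.37, and all but Chd7 lost the call without tumour 3 (adjusted p = 0.0689, 0.0635 and 0.079). Pax6 and Nfib lost it without tumour 4 (adjusted p = 0.0802 and 0.103), and Nfib without tumour 1 (adjusted p = 0.0517). With a mitotic sum of 0 in members, Sfrp1, Chd7 and Sox4 were not called (0.44, -0.61 and -0.51, adjusted p = 0.278, 0.194 and 0.497), nor were Ccnd2, Pax6 and Nfib (adjusted p = 0.378, 0.0516 and 0.0516), which left Ccnd1 higher and Zic1 lower. Mycn, Nfia, Barhl1, Zic2, Meis1 and Insm1 did not pass, with log2 fold changes from -0.44 for Zic2 to 0.33 for Mycn. The list summed to 11175, 12293, 13507 and 11968 CPM in S-phase cells and 11996, 11063, 14080.3 and 13795 CPM in quiet cells, ranges that overlapped. Markers of the granule lineage progenitor stood at 4597 ± 437 CPM in S-phase and 4044 ± 663 CPM in quiet cells (SD, n = 4).

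Of the AMPK, mTORC1 and growth list 8 of 26 genes were tested and Pkm, the pyruvate kinase of muscle and proliferating cells, rose (log2 fold change 0.85, SE 0.25, edgeR adjusted p = 0.007), a call lost without tumour 1, 3 or 4 (adjusted p = 0.0601, 0.0698 and 0.583). Ldha, Ldhb, Ddit4, Rheb, Stk11, Rps6kb1 and Tsc1 did not pass, with log2 fold changes from -0.69 for Ddit4 to 0.81 for Ldha. The deleted genes were near the limit of detection. Prkaa1 had 5 UMIs over all S-phase cells, 19.0 CPM (95% exact Poisson interval 6.15 to 44.2), against 4 UMIs in quiet cells, 4.81 CPM (1.31 to 12.3). Prkaa2 had 2 UMIs, 7.58 CPM (0.918 to 27.4), against 14 UMIs, 16.8 CPM (9.21 to 28.3). The intervals overlapped for both genes. They cover counting error only and treat the tumours as 1 pool, and a 3′ count need not read the floxed exon, so these values do not check the deletion.

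Levels of the replication lists were already raised just outside the threshold on average, with wide differences between tumours. Among cells with a mitotic sum of at most 3, the origin list averaged 854, 1288 and 1953 CPM over tumours at S sums of 0, 1 and 2, just outside the rule. Inside it, the list averaged 2308, 2577 and 3120 CPM at sums of 3, 4 or 5, and 6 or more. The tumours differed: from a sum of 2 to 3 the list went from 818 to 1485 CPM in tumour 1 and from 2172 to 3436 CPM in tumour 2, but from 2535 to 2337 CPM in tumour 3 and from 2287 to 1974 CPM in tumour 4. The values of tumours 1 and 2 at a sum of 3 came from 5 cells each. Polymerase and fork genes did not change steadily, at 3290 CPM at a sum of 2, 2801 at 3 and 4479 at 4 or 5. Neuron genes went from 16693 CPM at 0 and 11407 at 2 to 5731 at 3, 7546 at 4 or 5 and 5870 at 6 or more. At a sum of 2 they ranged over tumours from 7832 to 16797 CPM and at a sum of 3 from 4020 to 7301 CPM, and at 4 or 5 from 4177 to 11359 CPM.

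**Figure D5:**
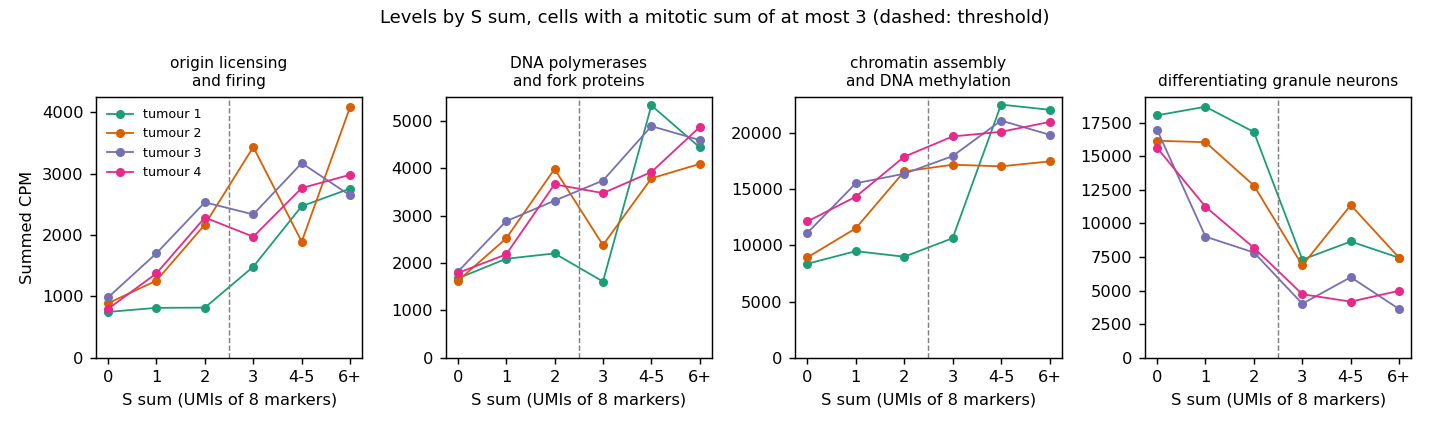
Summed level of 4 lists (vertical axes, CPM, gate genes left out) by S sum (horizontal axes) in cells with a mitotic sum of at most 3, 1 line per tumour, with the threshold dashed. Origin genes average 1953 CPM at a sum of 2 and 2308 at 3, and neuron genes 11407 and 5731 CPM.

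The comparison with G2/M cells, the other dividing class, set genes of the S-phase cells beside those of cells later in the cycle. It used the same S-phase sums as the comparison with quiet cells, so the 2 sets of values share those samples and are not independent. The rule also held G2/M cells to an S sum under 3 and left out the 301 cells with both sums high. The direction of genes that go with the S sum was therefore partly set by the rule. Origin genes averaged 2261 CPM in those 301 cells, 2626 in S-phase and 1706 in G2/M cells. Of 1649 genes tested 117 differed (7.1%), 23 higher (1.39%) and 94 lower (5.7%) in S-phase cells. Without tumours 1 to 4 in turn, 139 of 2112, 160 of 2087, 97 of 1698 and 58 of 1546 genes differed. Of these, 22, 35, 16 and 4 were higher. The count was 32 without the tumour block. Mcm2 was higher in S-phase cells, with 71.1, 77.7, 63.5 and 47.5 CPM in the G2/M cells of tumours 1 to 4, all below the S-phase values given above (log2 fold change 1.68, SE 0.36, edgeR adjusted p = 6.95e-05). Cdca7 had 185, 129, 145 and 156 CPM in G2/M cells, also below each of its S-phase values (log2 fold change 1.27, SE 0.27, edgeR adjusted p = 7.35e-05), though its call was lost without tumour 4 (1.22, adjusted p = 0.114). Slfn9 was at 85.3, 142, 45.4 and 34.0 CPM in G2/M cells, lower in each tumour with overlap across tumours (log2 fold change 1.64, SE 0.36, edgeR adjusted p = 0.000159). E2f3 and Dut were higher by 1.11 and 0.86 on the log2 scale and lost their calls without tumour 2 (adjusted p = 0.0918 and 0.0838), E2f3 also without tumour 3 (adjusted p = 0.12) and Dut without tumour 4 (adjusted p = 0.85).

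Replication genes called higher than in G2/M cells numbered 4 of 34 tested over 5 lists, against 1.39% of all genes. Their direction was partly set by the rule, so these counts are given as a description. In the origin list 1 of 5 tested genes was higher, in nucleotide synthesis 1 of 8, in the regulator list 2 of 8, and in polymerase and fork genes (7 tested) and repair genes (6 tested) none was called by edgeR or DESeq2, with 2 and 1 genes at an unadjusted edgeR p under 0.05. These counts changed with the tumours used. Without tumour 2, 4 origin genes were higher and 1 lower of 10 tested, and without tumour 1, 2 of 8 were higher. Of polymerase and fork genes, 2 of 13 tested were higher without tumour 1 and 1 of 8 without tumour 3. Without tumour 2, 2 of 12 were higher and 1 was lower. Repair genes had 1 of 7 higher without tumour 3. Nucleotide synthesis had 0 of 12 called without tumour 2 and 0 of 6 without tumour 4, and the regulators 0 of 7 higher without tumour 4. Mcm7, Gmnn and Gins2 had log2 fold changes of 0.50, 0.74 and 0.81 (SE 0.26, 0.35 and 0.33), and Prim1 and Rad51ap1 of 0.25 and 0.18 (SE 0.26 and 0.30). None of these 5 was called, which does not show that the classes had equal levels. Cdkn1b was lower in S-phase than in G2/M cells, where it stood at 398, 376, 508 and 628 CPM, above every S-phase value (log2 fold change -1.27, SE 0.26, edgeR adjusted p = 2.46e-05).

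The rule chose G2/M cells by mitotic transcripts, and low mitotic genes entered the test through those cells, so the direction of the 32 mitotic genes tested (48 listed), each called lower in S-phase cells, was largely set by the rule. Their values are given as a description. Ccnb2, a B cyclin of mitosis, had 0, 0, 2 and 0 UMIs in the S-phase cells of tumours 1 to 4 and 21, 20, 25 and 81 in G2/M cells (log2 fold change -4.92, SE 0.58, edgeR adjusted p = 3.55e-15). Cenpa, the centromeric histone H3, had 0, 1, 2 and 2 against 15, 21, 57 and 156 UMIs (log2 fold change -4.56, SE 0.46, edgeR adjusted p = 2.64e-20). Cdk1, the mitotic kinase, had 0, 0, 2 and 8 against 17, 18, 42 and 111 UMIs (log2 fold change -3.23, SE 0.40, edgeR adjusted p = 1.01e-13). The spindle motors Kif23, Kif11 and Kif4 fell, with log2 fold changes of -4.07, -3.77 and -3.50, and the checkpoint kinase Bub1, the kinetochore gene Nuf2, the activator Cdc20 and the cohesin guard Sgol2 had values of -3.50, -3.57, -3.50 and -3.38. Smc4 and Smc2, higher than in quiet cells, were lower than in G2/M cells, with log2 fold changes of -1.47 and -1.12. Racgap1 and Ncapd2 lost their calls without tumour 4 (adjusted p = 0.108 and 0.108).

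Of 31 chromatin genes tested 8 were lower in S-phase than in G2/M cells and none was called higher. Hmgb2, a chromatin protein abundant in dividing cells, was at 223, 624, 687 and 624 CPM in S-phase and 555, 518, 2458 and 2564 CPM in G2/M cells. It was far lower in tumours 1, 3 and 4 and not in tumour 2 (log2 fold change -1.83, SE 0.17, edgeR adjusted p = 4.16e-25). H2afv, Rad21, H2afz, Hmgn2, H1f0 and Anp32e were lower, with log2 fold changes of -1.01, -1.17, -0.96, -0.94, -0.92 and -0.81. Without tumour 4 the list had 3 of 30 tested genes called, with Rad21, H2afz, H1f0 and Anp32e not called (edgeR adjusted p = 0.086, 0.159, 0.125 and 0.298). H1f0 was not called without tumour 3 either (adjusted p = 0.115). The chaperones Nasp, Anp32b, Dek and Chaf1a did not pass (0.12, 0.31, -0.07 and 0.83). The linker histone genes Hist1h1b and Hist1h1e were lower, with log2 fold changes of -1.59 and -1.01, the latter not called without tumour 3 or 4 (adjusted p = 0.0776 and 0.349).

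Of the SHH list 0 of 15 tested genes differed from G2/M cells (edgeR adjusted p; 2 had an unadjusted p under 0.05 and DESeq2 also called 0), with a median log2 fold change of -0.08. Of 16 neuron genes tested 2 were lower, Neurod1 (-0.86) and Gap43 (-0.72), and both lost the call without tumour 3 (adjusted p = 0.0554 and 0.528), Gap43 also without tumour 4 (adjusted p = 0.338). The remaining genes named by the rule as higher in S-phase cells were Tfrc, the transferrin receptor, at 1.35, Rnf168, a ubiquitin ligase of DNA damage signalling, at 1.22, B2m at 1.21, Hnrnpf at 1.09 and Snhg1 at 0.98. With cells of other types left out, B2m and Rnf168 were below the filter and not tested. Without tumour 4 none of these 5 was called (adjusted p from 0.107 for Tfrc to 0.652 for B2m). Tfrc, Rnf168 and B2m were not called without tumour 3 either (adjusted p = 0.0547, 0.0734 and 0.0927), Rnf168 and Snhg1 without tumour 2 (adjusted p = 0.0559 and 0.0676) and Snhg1 without tumour 1 (adjusted p = 0.285).

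Cells carrying several markers of another type were rare among the S-phase cells but held most UMIs of some markers. Only 3 of 231 members (1.30%) carried at least 3 markers of microglia, endothelium, mural cells, oligodendrocytes or astrocytes, against 34 of 970 quiet cells (3.51%) and 4 of 486 G2/M cells. This count can miss cells with few UMIs. A stricter setting asked for granule-lineage UMIs and no UMI of these other types. It kept 129 of the 231 members, 586 of the 970 quiet and 288 of the 486 G2/M cells. The 2 such members of tumour 4 held 184 of its 190 microglial UMIs, and the 1 of tumour 1 held 71 of its 71 mural and 30 of its 31 endothelial UMIs. Summed over each list, microglial markers ranged from 37.1 to 1197 CPM over the S-phase cells of the 4 tumours, endothelial markers from 89.1 to 1151 CPM and mural markers from 0 to 2636 CPM. Oligodendrocyte markers ranged from 176 to 445 CPM in S-phase and from 571 to 3431 CPM in quiet cells, with 13 quiet cells and no member carrying 3 of them. Sparc, a matrix protein of vascular cells, had the largest rise over G2/M cells, with 35, 3, 6 and 31 against 9, 11, 2 and 4 UMIs (log2 fold change 2.78, SE 0.35, edgeR adjusted p = 2.51e-13). With cells of other types left out, as without tumour 4, Sparc fell below the filter and was not tested.

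Within the class, S-phase cells with 2 or 3 mitotic UMIs were compared with those with none. The rule used the mitotic sum, so only genes outside both gates were tested, and of 294 genes 1 (0.34%) differed. This was 2810417H13Rik, with 3, 1, 39 and 84 UMIs in cells with 2 or 3 mitotic UMIs and 0, 0, 14 and 39 in cells with none, or 197, 234, 1509 and 1479 against 0, 0, 530.2 and 557 CPM. It was higher in each tumour, with tumours 1 and 2 again resting on 3 UMIs and 1 UMI (log2 fold change 1.498, SE 0.25, edgeR adjusted p = 0.00543), and its call was lost without tumour 2 (1.51, adjusted p = 0.0892). In this comparison 13 genes had an unadjusted p under 0.05, and DESeq2 called 0. Smc4 and Ezh2 had log2 fold changes of 0.75 and 0.72 (adjusted p = 0.799 for both). Over the whole list, mitotic genes outside the gate averaged 2630 CPM at a mitotic sum of 0, 3393 at 1, 5208 at 2 or 3 and 15415 at 4 or more, the last in the 301 cells with both sums high. Origin genes averaged 2418, 2239, 2948 and 2261 CPM over the same steps, with SDs over tumours from 45.9 to 379 CPM, and were not tested.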

How the data were processed

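Counts were deposited by the authors as whole-number UMI counts per gene and cell barcode, per the file headers, in 1 table per tumour with 15002 genes. The submitters' processing notes name STAR and mm10. The counting software, annotation and barcode filter are not given in the sources used here. Another 6 tables with 11203 cell columns match no labelled sample and were not analysed here. The members and gene lists were chosen with earlier results of these data known.

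Barcodes with at least 500 UMIs, at least 200 genes and at most 10% mitochondrial UMIs were kept, leaving 2288 of 6734. Raw counts were summed per tumour and class and tested with edgeR 4.0.16 (R 4.3.3; quasi-likelihood test, TMM scaling, low-count filter, gate genes left out of testing), with Benjamini-Hochberg adjustment over all genes tested and a threshold of 0.05. The classes of 1 tumour come from the same animal, so the tumour was a block. Same-tumour sums deviated together, with correlations from 0.27 to 0.63 against quiet and from 0.40 to 0.72 against G2/M cells (log2 of CPM plus 10). With this block, p-values measure how steady the difference between classes of the same tumour was over 4 tumours, not the spread of levels between tumours. The spread of each gene was estimated with help from all other genes. Levels are CPM, a gene's UMIs over all UMIs of a class and tumour, scaled to a fixed total.

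Some genes under the naming rule are not reported here. Genes named are the gate genes, the tested members of the lists and, per contrast and direction, the 10 largest log2 fold changes that passed the threshold, kept 1 sign in all 4 tumours and averaged 50 CPM or more. On simulated data (2822 genes), 50 genes were changed at each size, with the simulated spread set the same for every gene. Shares below are of the changed genes that passed the low-count filter, and the rest were not recovered. Against quiet cells, 38 of 39 tested 4-fold rises (97.44%) and 17 of 33 2-fold rises (51.52%) were recovered. For falls it was 16 of 16 at 4-fold (100%) and 5 of 21 at 2-fold (23.81%), with 3.797% false calls. With G2/M cells (1624 genes) these were 39 of 39 (100%), 11 of 23 (47.83%), 13 of 13 (100%) and 9 of 14 (64.29%). False calls were 4% there and 11.11% within the class (288 genes). Doublets (Scrublet in scanpy 1.11.5, expected share 6%, or total UMIs over 4 SD above the median) and cells with at least 3 markers of another type were left out only in alternatives chosen after seeing the data. Other alternatives were DESeq2 1.42.0, other scalings, filters, gates, thinning to 500 UMIs and each tumour left out. Figures were drawn with Python 3.11.15 and matplotlib 3.10.9.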

Additional observations from a re-analysis of the deposited data

Results flagged for a closer look

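In 9 of 69 values checked, 1 of the 4 tumours lay far from the other 3. Chance gives about 1 in 20 for independent, normally spread values. The 69 values share cells and genes, so 9 cannot be set against that rate. Tumour 2, with 14 S-phase cells, stood apart in 5. In its S-phase cells, mitotic genes outside the gate summed to 5345 CPM (others 3238 to 3571), stem or glial genes to 178 CPM (others 668 to 762) and markers of differentiating granule neurons to 3830.4 CPM (others 1614 to 1856). Its quiet cells held 425 CPM of the mitotic gate genes (others 239 to 269). Esco2 stood at 356 CPM in its S-phase cells (others 101 to 134), from 4 UMIs.

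The other 4 concern markers of other cell types. Microglial markers summed to 1197 CPM in the S-phase cells of tumour 4 (others 37.1 to 178). Endothelial markers reached 1151 CPM in those of tumour 1 (others 89.1 to 189) and mural markers 2636 CPM (others 0 to 6.30). Mural markers also stood at 889.7 CPM in the quiet cells of tumour 1 (others 23.0 to 136).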

How the results depend on the processing

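Against quiet cells, the main count of 494 genes moved by over 1.5 times under 8 settings and when tumours were left out. It was 78 in tumours 1 and 2 alone, 159 with DESeq2, 253 after thinning each cell and 192 with thinning before the gate. It was 115 with at least 1000 UMIs and 500 genes, 105 with a mitotic sum of 0 in members and 243 in granule-lineage cells only. Without the tumour block it was 17, and leaving out 1 tumour gave 147 to 585. Upper-quartile scaling gave 218 higher and 267 lower genes (485), against 266 and 228. Against G2/M cells the count of 117 became 0 in tumours 1 and 2 alone (edgeR, 105 at an unadjusted p under 0.05), 59 with DESeq2, 59 after thinning, 60 with at least 1000 UMIs and 500 genes and 207 without the mitochondrial limit. It was 32 without the tumour block and 58 to 160 with 1 tumour left out. Within the class, the 1 called gene became 0 without the block (edgeR, 1 unadjusted) and with DESeq2 (3 unadjusted), 3 in tumours 3 and 4 alone, and 0 to 1 with 1 tumour left out. The S-phase share averaged 12.9% with at least 1000 UMIs and 500 genes and 13.5% with an S sum of at least 2. Of 1874 values of 102 called genes against quiet cells, 1484 kept direction and call, 387 lost the call (86 of them without the block) and 3 reversed, all in tumours 1 and 2 alone: Casp8ap2 -0.30, Hmgn1 -0.051 and Cbx3 -0.28 (edgeR adjusted p = 0.859, 0.963 and 0.901). Against G2/M cells 683 of 823 were kept and 140 lost. Causes were not tested. In tumour 2, 1 UMI was 89.1 CPM, which limits what low genes can show there.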
